A study of Mus musculus with 4 samples.

Results

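The interferon response genes and nucleic acid sensors of adult mouse mesoangioblasts (AdmMABs) were followed after silencing of PW1. AdmMABs are vessel-associated progenitors of skeletal muscle that can form muscle cells. The genes were taken from a list of 57 names, drawn up by known role with earlier results of these data known, which stand for 55 genes because Ddx58 and Rigi, and Tmem173 and Sting1, are old and new names of the same genes. A probe set of their own was present for 52 of them, out of 19938 genes measured in all. Isg15 and Gbp2 were found only in probe sets that carry several gene symbols, Ifi44 had none under this symbol, and these 3 genes have no value here.

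Proliferating AdmMABs, a polyclonal population from the tibialis anterior of adult male C57/BL6 mice, carried a lentiviral hairpin that targets PW1 (shPW1, 2 arrays) or a scrambled hairpin from a lentivirus (shCtrl, 2 arrays). Each array, an Affymetrix Mouse Gene 1.0 ST, measured 1 RNA extraction, and the extractions of a group came from 1 transduced population. The p-values below therefore reflect the variation among extractions alone, part of which may be technical. Only 1 hairpin against PW1 was used, and it was expressed from an RNA polymerase III promoter under puromycin selection. The hairpin against PW1 was in the vector pLV-H1, and a control hairpin in pLKO.1 is named in the methods without saying that the shCtrl cells of the arrays carried it. A difference between vectors cannot be told apart from the loss of PW1. Untransduced cells were not analysed here, so a response that both lentiviruses caused alike would not be visible in the comparison.

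Cells recognise viral RNA through Ddx58 (RIG-I) and Ifih1 (MDA5), which signal through Mavs, and cytosolic DNA through Cgas, which signals through Sting1. These routes activate Irf3 and Irf7 and switch on type I interferons such as Ifnb1, which act on the receptor pair Ifnar1 and Ifnar2 through the kinases Jak1 and Tyk2. A complex that holds Stat2 and Irf9 then binds the interferon-stimulated response element (ISRE) of antiviral genes, while interferon gamma acts through Ifngr1 and Ifngr2 on the gamma-activated site (GAS), and Socs1 and Usp18 damp the signal. The pathway is of interest in cells with a short hairpin RNA because double-stranded RNA and lentiviral transduction are known in general to be able to trigger it.

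Values are log2 expression after the authors' normalization, and differences are shPW1 minus shCtrl on the log2 scale, with limma's standard error and its p-value, which was adjusted across all tested probe sets (Benjamini-Hochberg). Adjusted p-values under 0.05 were taken as passing the test. Peg3, the gene of PW1, was at 6.22 and 6.47 in the shPW1 arrays, against 8.67 and 8.70 in the shCtrl arrays (log2 fold change -2.34, standard error 0.10, adjusted p = 0.00428), so the target was lower in both shPW1 arrays. Array medians were 5.44 and 5.40 in shPW1 and 5.47 and 5.49 in shCtrl. The SD of the log2 difference between replicates was 0.17 in shPW1 and 0.15 in shCtrl, and between a shPW1 and a shCtrl array it was 0.27 to 0.29. No detection call was available, so a level well under the array median cannot be told apart from background.

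Marker lists described the cells. Of 9 measured markers of mesoangioblasts and pericytes, 4 were lower in shPW1 (44.4%, against 4.35% of all genes) and 1 was higher (11.1%, against 4.93%). Their mean log2 level was 7.68 and 7.64 in shPW1 and 7.90 and 7.91 in shCtrl. Of 6 myogenic genes, 4 were lower (66.7%), with a mean of 7.57 and 7.52 in shPW1 and 8.12 and 8.14 in shCtrl. Leukocytes and dendritic cells express many of the genes described below. The 13 markers of macrophages and other leukocytes averaged 4.67 and 4.59 in shPW1 and 4.69 and 4.80 in shCtrl, and the 6 markers of dendritic cells 4.30 and 4.17 in shPW1 and 4.20 and 4.33 in shCtrl. By their mean over the 4 arrays, all of these leukocyte and dendritic markers were dim, that is, below the median level of 6.05 over the probe sets tested, and none passed the test in limma. The leukocyte marker Cd53 came nearest, at 5.18 and 5.57 in shPW1 and 6.41 and 6.04 in shCtrl (-0.85, adjusted p = 0.0597), with both shPW1 arrays below the shCtrl arrays.

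Of the 52 genes, 5 were higher in shPW1 (9.62% of them, against 4.93% of all 19938 genes) and 1 was lower (1.92%, against 4.35% of all genes), while 46 did not pass the test. In either direction, 9.28% of all genes passed it, 982 higher and 868 lower, and with array medians subtracted before the fit these were 1477 higher and 727 lower. The higher genes were Cxcl10, Ifngr2, Ifnar2, Dtx3l and Socs1, and the lower gene was Irf5. The median log2 fold change was 0.06, against -0.01 over all genes. Both shPW1 arrays lay above both shCtrl arrays for 20 of the genes (38.5%, against 27% of all genes) and below them for 12 (23.1%, against 28.5% of all genes), and the arrays overlapped for the other 20. The shares differed with the level. Among the 27 brighter genes, above the median level, 3 were higher and 1 lower with a median of 0.12, where all 9875 brighter genes had a median of 0.02 with 8.97% higher and 6.86% lower. Among the 25 dimmer ones, 2 were higher and none lower, with a median of 0.04, where all 10063 dimmer genes had a median of -0.03 with 0.954% higher and 1.90% lower. No gene of the list, and no gene of all those measured, passed the test when any 1 of the 4 arrays was left out, and with the replicate number as a block only Cxcl10 of the list did. In bulk RNA such as this, a change in the number of cells of a type cannot be told apart from a change in RNA per cell.

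**Figure D1:**
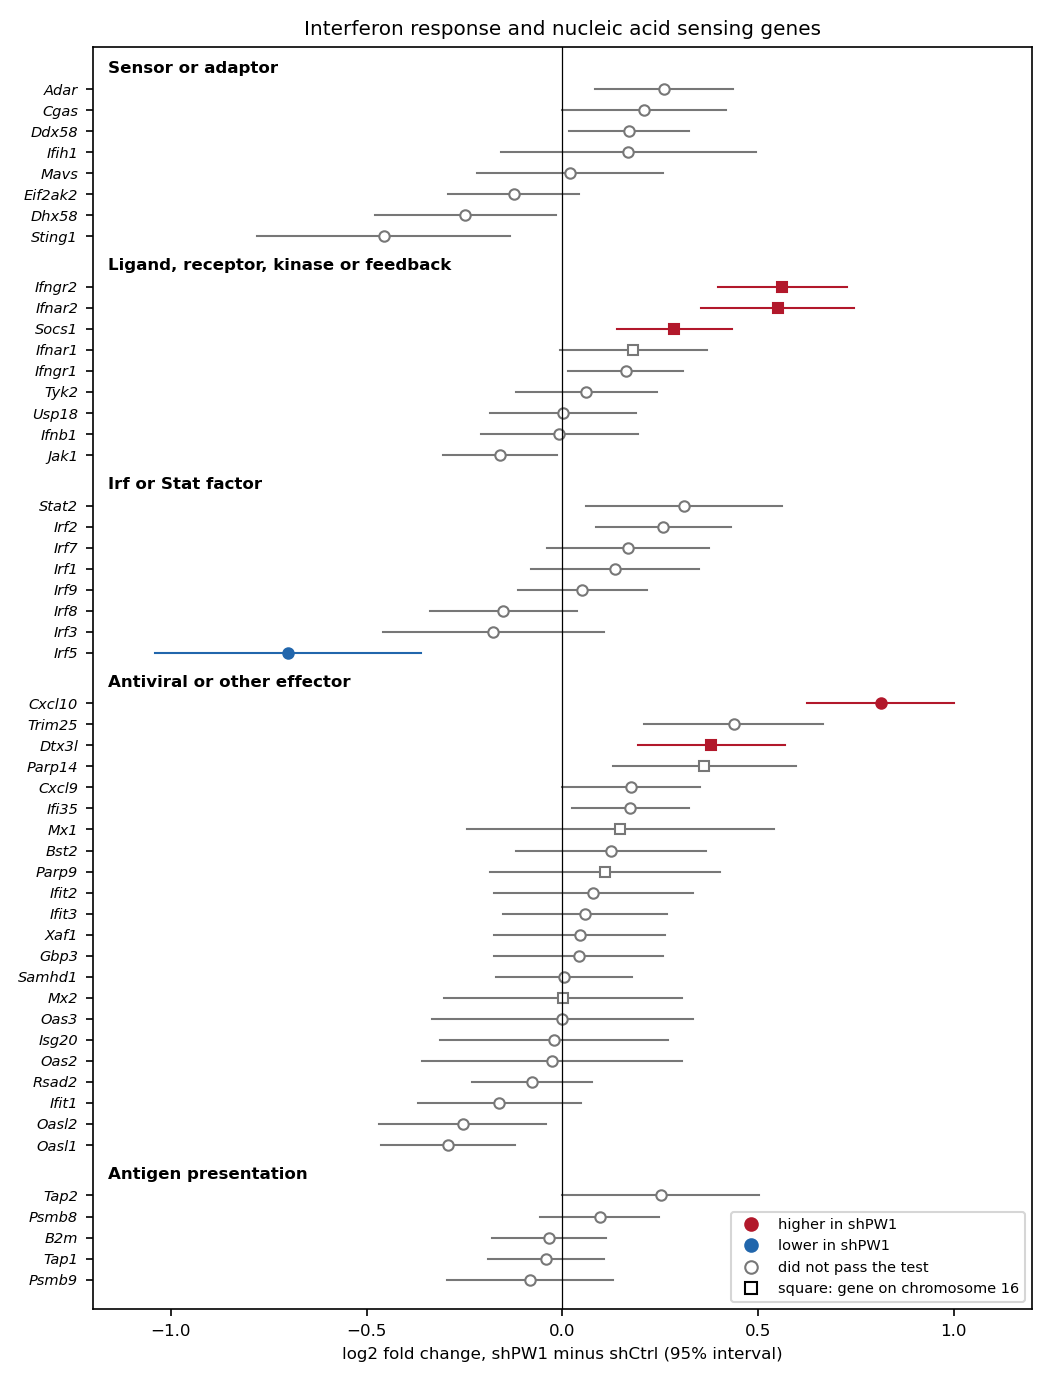
Log2 fold change of each of the 52 genes, shPW1 minus shCtrl, with its 95% interval from limma, grouped by role. Filled symbols passed the test (red higher, blue lower in shPW1), and squares lie on chromosome 16. Of the 5 filled red symbols, 4 are squares, and most open symbols lie within 0.3 of 0.

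The classical antiviral genes gave no call. Within the list, 14 genes belong to families that are standard readouts of an interferon response: Ifit1, Ifit2, Ifit3, Mx1, Mx2, Oas2, Oas3, Oasl1, Oasl2, Rsad2, Usp18, Isg20, Bst2 and Xaf1. None of the 14 passed the test in either direction. Of all genes, 4.93% were higher and 4.35% lower, and of the dimmer genes 0.954% and 1.90%, so few calls would be looked for among 14. None had both shPW1 arrays above both shCtrl arrays, against 27% of all genes and 13.3% of the dimmer ones, where 10 of the 14 belong. Both lay below for 4 (28.6%, against 28.5% of all genes and 25.2% of the dimmer ones). The median log2 fold change of the 14 was 0.00. At an unadjusted p under 0.05 in limma, 2 were lower (Oasl1 and Oasl2) and none was higher, and the methods' analysis of variance, at its unadjusted threshold, called Oasl1 lower alone. Of the 14, 10 were dim, and the interval of a difference does not bound a change in a gene at background. Among the 4 brighter ones (Ifit2, Isg20, Oasl1 and Bst2), the highest upper 95% limit was that of Bst2, at 0.37.

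Ifit1, which binds viral RNA that lacks a host cap, was at 3.67 and 3.53 in shPW1 and 3.71 and 3.82 in shCtrl. Rsad2 (viperin, an antiviral enzyme) was at 5.01 and 4.99 in shPW1 and 5.10 and 5.06 in shCtrl. Mx1, a GTPase that blocks influenza virus, was at 2.75 and 3.13 in shPW1 and 2.89 and 2.69 in shCtrl, and C57BL/6 mice are known to carry a defective Mx1. All 3 were dim in all arrays and did not pass the test (Ifit1 -0.16, Rsad2 -0.08 and Mx1 0.15), and at these levels the sign of a difference cannot be read. Ifit2 stood at a moderate level, 6.61 and 6.84 in shPW1 and 6.61 and 6.69 in shCtrl, and its arrays overlapped. Oasl1, which in mice represses Irf7 translation, was at 6.20 and 6.3 in shPW1 and 6.55 and 6.53 in shCtrl, and Oasl2, a 2'-5' oligoadenylate synthetase-like protein, was at 5.37 and 5.53 in shPW1 and 5.67 and 5.74 in shCtrl. For both Oasl genes the shPW1 arrays lay below the shCtrl arrays without passing the test (-0.29 and -0.25, adjusted p = 0.0644 and 0.134). Oasl1 passed it once the dim probe sets were removed (adjusted p = 0.00946), and also when limma's prior variance followed the level of expression, a trended prior (adjusted p = 0.037).

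Promoter sequences were set beside the values. RefSeq promoter windows of build GRCm38.p6, running from 250 bases before to 50 after the start site, were matched by symbol for 43 of the 52 genes (52 windows); Dhx58, Sting1, Usp18, Mx1, Mx2, Oas2, Parp9, Parp14 and Tap2 had none. The ISRE core, TTTC followed by any 2 bases and again TTTC, searched on both strands, was present in 14 of the 52 windows (26.9%, against 3.44% of 32851 windows of all genes), and the GAS motif TTCNNNGAA in 13 (25%, against 8.3%). The kappaB consensus, which NF-kappaB binds and which was added once the values were known, was present in 11 (21.2%, against 8.46%). A match describes these letters and not a bound site. Of the 10 classical antiviral genes with a window, 5 held the ISRE core (Ifit1, Ifit3, Oas3, Rsad2 and Bst2) and 5 did not (Ifit2, Oasl1, Oasl2, Isg20 and Xaf1). The 250 bases upstream of Cxcl10, the gene of the list with the largest rise, and of Ifit1, which did not pass the test, are shown first to set a window with ISRE and kappaB letters beside one with ISRE letters alone, with the matches in capitals, 5′ to 3′ on the strand of the gene (Cxcl10 at chr5:92348890-92349139, minus strand, and Ifit1 at chr19:34640639-34640888, plus strand).
Cxcl10: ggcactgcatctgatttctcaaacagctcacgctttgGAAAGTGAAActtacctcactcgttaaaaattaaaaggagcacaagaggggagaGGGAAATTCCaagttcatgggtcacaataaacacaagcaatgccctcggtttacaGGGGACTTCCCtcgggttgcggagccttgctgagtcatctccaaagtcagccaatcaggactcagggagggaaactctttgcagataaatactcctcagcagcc
Ifit1: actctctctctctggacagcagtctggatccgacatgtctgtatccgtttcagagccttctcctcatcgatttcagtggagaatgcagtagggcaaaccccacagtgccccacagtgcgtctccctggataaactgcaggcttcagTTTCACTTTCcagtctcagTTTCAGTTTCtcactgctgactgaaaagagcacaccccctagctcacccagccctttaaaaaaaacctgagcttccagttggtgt
In Cxcl10 the first capitals are the ISRE core on the opposite strand and the later capitals are kappaB matches. In Ifit1 both stretches are ISRE cores.

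From 5 other genes, the ISRE core farthest upstream is given with 10 bases on either side, to set it beside the values, with the core in capitals and the letters running 5′ to 3′ on the strand of the gene. Ifit3, Gbp3 and Socs1 each hold a second core nearer the start site, which in Gbp3 and Socs1 overlaps the one shown and is left in lower case. The stretches lie at chr19:34583363-34583392 (Ifit3, plus strand), chr12:26456553-26456582 (Rsad2, minus), chr3:142559989-142560018 (Gbp3, plus), chr16:10785600-10785629 (Socs1, minus) and chr10:128270266-128270295 (Stat2, plus).
Ifit3: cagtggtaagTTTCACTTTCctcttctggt
Rsad2: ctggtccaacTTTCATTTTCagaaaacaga
Gbp3: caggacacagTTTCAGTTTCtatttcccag
Socs1: agacttgccgGAAAGAGAAAccgaaagcgg
Stat2: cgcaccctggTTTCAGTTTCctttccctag
Ifit3 (0.06), Rsad2 (-0.08) and Gbp3 (0.04) had log2 fold changes near 0, while Socs1 passed the test (0.29) and Stat2 did not (0.31, adjusted p = 0.125). Of all genes, 4.93% were higher and 4.35% lower. Over all 14 genes with the ISRE core, 2 were higher (Cxcl10 and Socs1), none was lower, and the median log2 fold change was 0.09 with a range of -0.16 to 0.81. Over the 29 genes whose windows hold no core, 3 were higher and 1 lower with a median of 0.06. Genes with and without the letters therefore had like medians, and the difference between them was not tested.

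Among the remaining effectors, the chemokines came apart. Cxcl10, which draws activated T cells and is induced by interferons and by NF-kappaB, was at 5.19 and 5.31 in shPW1, against 4.47 and 4.41 in shCtrl (log2 fold change 0.81, standard error 0.07, adjusted p = 0.0117). Its level was below the array median in every array, and both shPW1 arrays lay above both shCtrl arrays. Cxcl9, its neighbour in the genome and known chiefly as a target of interferon gamma, was at 5.0 and 5.12 in shPW1 and 4.89 and 4.88 in shCtrl, and its difference of 0.18 did not pass the test (adjusted p = 0.184). Dtx3l, a ubiquitin ligase that works as a complex with Parp9, was at 5.76 and 5.90 in shPW1, against 5.46 and 5.44 in shCtrl (0.38, standard error 0.07, adjusted p = 0.0455). Its partner Parp9 was at 5.89 and 6.16 in shPW1 and 5.98 and 5.86 in shCtrl, with overlapping arrays and a difference of 0.11 (adjusted p = 0.603). Parp14, an ADP-ribosyltransferase, was at 5.37 and 5.35 in shPW1 and 5.10 and 4.89 in shCtrl (0.36, adjusted p = 0.0789), and Trim25, the ubiquitin ligase that activates RIG-I, was at 7.82 and 8.03 in shPW1 and 7.49 and 7.48 in shCtrl (0.44, adjusted p = 0.0515). In both genes the shPW1 arrays lay above the shCtrl arrays without passing the test. Trim25 passed it in several other settings, with adjusted p-values between 0.00185 and 0.0486, and Parp14 with array medians subtracted (adjusted p = 0.0406) and with the trended prior (adjusted p = 0.0451). Of all 22 effectors measured, 2 were higher (9.09%, against 4.93% of all genes) and none lower (against 4.35%), with a median of 0.05.

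The sensors and their adaptors gave no call in either direction among 8 genes, where 9.28% of all genes passed the test, with a median of 0.09. At an unadjusted p under 0.05 in limma, 2 were higher (Ddx58 and Adar) and 2 lower (Dhx58 and Sting1), and none passed the methods' analysis of variance. Of the RNA helicases, Ddx58 was at 7.33 and 7.39 in shPW1 and 7.19 and 7.19 in shCtrl (0.17, adjusted p = 0.151), and Ifih1 at 5.34 and 5.48 in shPW1 and 5.40 and 5.09 in shCtrl (0.17, adjusted p = 0.455). Dhx58 (LGP2), which regulates both, was at 4.37 and 4.50 in shPW1 and 4.60 and 4.77 in shCtrl (-0.25, adjusted p = 0.161). Ifih1 and Dhx58 were dim and the arrays of Ifih1 overlapped, so whether the 3 helicases shared a direction cannot be read. Mavs, the adaptor below Ddx58 and Ifih1, was at 8.38 and 8.45 in shPW1 and 8.50 and 8.29 in shCtrl (0.02).

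On the DNA side, Cgas was at 5.67 and 5.84 in shPW1 and 5.57 and 5.53 in shCtrl (0.21, adjusted p = 0.183). Sting1 was at 7.71 and 7.78 in shPW1 and 8.36 and 8.04 in shCtrl, a difference of -0.46 (95% interval -0.78 to -0.13, adjusted p = 0.0954) that left the shPW1 arrays below both shCtrl arrays without passing the test. The enzyme and its adaptor had differences of opposite sign, but Cgas was dim and neither passed the test. Eif2ak2 (PKR), the kinase that stops translation when it binds double-stranded RNA, was at 7.37 and 7.47 in shPW1 and 7.55 and 7.54 in shCtrl (-0.12, adjusted p = 0.296). Adar, which edits double-stranded RNA and keeps it from the sensors, was at 8.0 and 7.98 in shPW1 and 7.79 and 7.68 in shCtrl (0.26, 95% interval 0.08 to 0.44, adjusted p = 0.0876). Neither double-stranded RNA binder passed the test. With the trended prior, Sting1 was lower (adjusted p = 0.00491) and Adar higher (adjusted p = 0.0148). Once the dim probe sets were removed, Ddx58 (adjusted p = 0.0343) and Adar (adjusted p = 0.0155) were higher and Sting1 was lower (adjusted p = 0.0223). Mavs and Eif2ak2 did not pass in that setting.

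Of the 9 receptor and feedback genes, 3 were higher (33.3%, against 4.93% of all genes and 13.7% of those on chromosome 16, where all 3 lie), none was lower, and the median was 0.16. Ifngr2, the signalling chain of the interferon gamma receptor, was at 10.23 and 10.32 in shPW1, against 9.72 and 9.71 in shCtrl (0.56, standard error 0.06, adjusted p = 0.0181). Ifnar2, a chain of the type I receptor, was at 8.75 and 8.86 in shPW1, against 8.31 and 8.20 in shCtrl (0.55, standard error 0.07, adjusted p = 0.0245). Both were among the brighter genes, and their groups did not overlap. Socs1, which inhibits the receptor kinases, was at 7.33 and 7.35 in shPW1, against 7.05 and 7.05 in shCtrl (0.29, standard error 0.06, adjusted p = 0.0495), and this was the call nearest to the threshold.

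Their partner chains had smaller differences. Ifngr1, the ligand-binding chain for interferon gamma, was at 8.25 and 8.26 in shPW1 and 8.09 and 8.10 in shCtrl (0.16, adjusted p = 0.152), and Ifnar1 was at 8.50 and 8.54 in shPW1 and 8.40 and 8.27 in shCtrl (0.18, adjusted p = 0.192). The shPW1 arrays lay above the shCtrl arrays in both without passing the test. Jak1, the kinase shared by both receptors, was at 10.32 and 10.33 in shPW1 and 10.48 and 10.48 in shCtrl (-0.16, adjusted p = 0.156), while Tyk2 differed by 0.06 and Usp18 by 0.00 with overlapping arrays. Without dim probe sets, Jak1 was lower (adjusted p = 0.0351) and Ifngr1, which lies on chromosome 10 (described below), was higher (adjusted p = 0.0333). With the trended prior, Jak1 was lower (adjusted p = 0.00616) and Ifngr1 did not pass (adjusted p = 0.0627). Ifnb1, the type I interferon made by fibroblast-like cells, was at 3.70 and 3.81 in shPW1 and 3.70 and 3.82 in shCtrl. The groups were interleaved (-0.01, adjusted p = 0.964), and the level was far under the array medians.

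**Figure D2:**
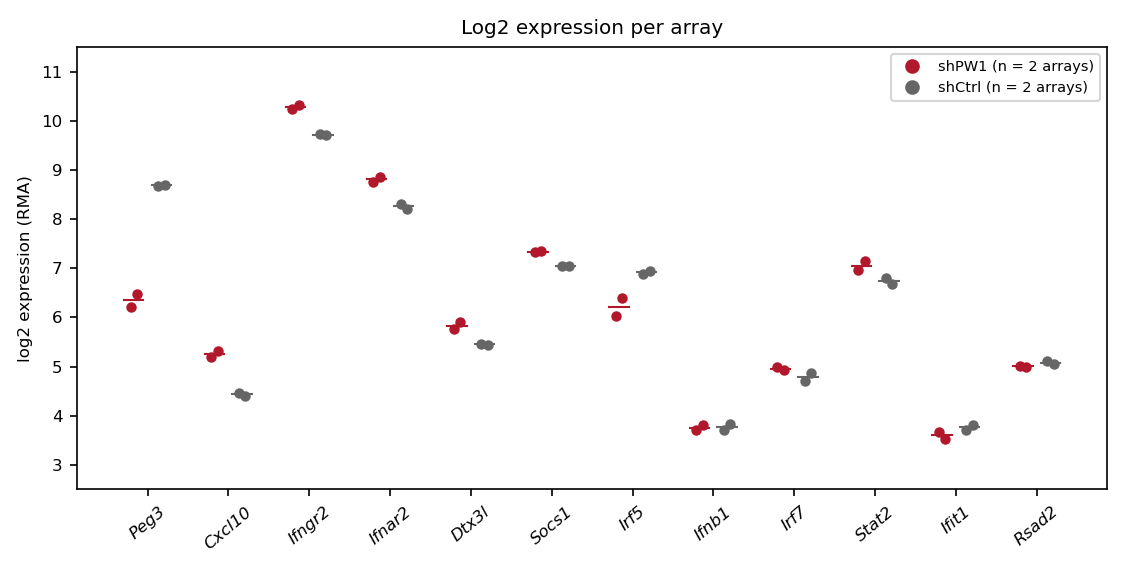
Log2 expression of Peg3 and 11 genes of the list on each array (red shPW1, grey shCtrl, n = 2 arrays each), with a line at the group mean. Red points lie above grey ones for Cxcl10, Ifngr2, Ifnar2, Dtx3l and Socs1 and below them for Irf5 and Peg3, while those of Ifnb1 overlap at about 3.8.

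The transcription factors gave 1 call, a lower one, among 8 (12.5%, against 4.35% of all genes), with a median of 0.09. Irf5, which acts below toll-like receptors in myeloid and other cells, was at 6.04 and 6.39 in shPW1, against 6.88 and 6.94 in shCtrl (-0.70, standard error 0.13, adjusted p = 0.0434). Both shPW1 arrays lay below the shCtrl arrays, but they differed from each other with an SD of 0.25, against 0.04 between the shCtrl arrays. Irf5 did not pass the methods' analysis of variance (unadjusted p = 0.0598), nor the test after renewed quantile normalization (adjusted p = 0.0539). The part of leukocytes in its difference was not tested. Of the 13 leukocyte markers, all dim, 4 had positive and 9 negative differences, and none passed the test. Irf7, the factor that amplifies type I interferon and is itself strongly induced by it, was dim, at 4.99 and 4.92 in shPW1 and 4.71 and 4.87 in shCtrl (0.17, adjusted p = 0.258). Irf3, the constitutive factor that the sensors activate by phosphorylation, was at 7.32 and 7.5 in shPW1 and 7.70 and 7.48 in shCtrl (-0.18, adjusted p = 0.371).

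Stat2 was at 6.95 and 7.15 in shPW1 and 6.81 and 6.67 in shCtrl (0.31, adjusted p = 0.125), and its partner Irf9 was at 5.90 and 5.94 in shPW1 and 5.91 and 5.83 in shCtrl (0.05). Irf1, which activates many interferon gamma targets, was at 8.51 and 8.67 in shPW1 and 8.50 and 8.41 in shCtrl (0.13, adjusted p = 0.368), and a second, dimmer Irf1 probe set gave -0.04. Irf2, which can repress the same elements, was at 7.10 and 7.21 in shPW1 and 6.90 and 6.90 in shCtrl (0.26, adjusted p = 0.0855). Irf8, a factor of myeloid cells, was at 5.63 and 5.50 in shPW1 and 5.70 and 5.74 in shCtrl (-0.15, adjusted p = 0.262). Irf1 and Irf2 thus both had shPW1 arrays above the shCtrl arrays, Irf8 had them below, and none of the 3 passed the test. In 2 other settings, without dim probe sets and with the trended prior, Irf2 (adjusted p = 0.0148 and 0.0368) and Stat2 (adjusted p = 0.0316 and 0.0345) were higher. Stat2 lies on chromosome 10, whose shift is described below.

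Antigen presentation genes, which interferon gamma raises in most cells, gave no call in limma among 5, where 9.28% of all genes passed. Their median was -0.03, and at an unadjusted p under 0.05 only Tap2 was higher. B2m, the light chain of class I molecules, was at 10.91 and 10.92 in shPW1 and 10.94 and 10.95 in shCtrl (-0.03, adjusted p = 0.762). The immunoproteasome subunits Psmb8 (0.10) and Psmb9 (-0.08) and the peptide transporter chain Tap1 (-0.04) differed little. Tap2, the other chain, was at 6.87 and 6.63 in shPW1 and 6.51 and 6.48 in shCtrl (0.25, adjusted p = 0.18), and its shPW1 arrays lay above the shCtrl arrays without passing the test.

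Most of the higher genes lay on 1 chromosome. Of the 5 higher genes, 4 (Ifngr2, Ifnar2, Dtx3l and Socs1) lie on chromosome 16, which holds 9 of the 52. These 9 had a median log2 fold change of 0.29 and all had a positive value. The 43 on other chromosomes had a median of 0.04, with 1 higher (Cxcl10) and 1 lower (Irf5), 2.33% each, against 4.64% higher and 4.46% lower of all genes off chromosome 16. Chromosome 16 as a whole was shifted in shPW1. Over all its genes, 13.7% were called higher and 1.85% lower. The 312 brighter genes on chromosome 16 had a median log2 fold change of 0.21, with 26.3% higher and 2.88% lower, and their median stood 0.18 and 0.23 above the shCtrl mean in the 2 shPW1 arrays, against 0.01 and -0.01 in the shCtrl arrays. Cut into 10 blocks of 31 to 32 such genes along its length, the chromosome had a positive median in every block, between 0.14 and 0.36.

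Chromosome 6, which holds Irf5 and Usp18, was shifted in the opposite direction. Over all its genes, 1.82% were called higher and 9.74% lower. The 476 brighter genes there had a median of -0.16, with 2.94% higher and 18.9% lower, and their median stood at -0.16 and -0.13 from the shCtrl mean in the shPW1 arrays. Every one of its 10 blocks had a median below 0, but the shift was uneven along its length. Blocks 1 to 4, counted from the start of the chromosome, had medians of -0.04, -0.08, -0.03 and -0.015. Blocks 5 to 10 had medians between -0.25 and -0.18. The promoter window of Irf5 starts at base 29526375, and which block holds the gene was not recorded. The brighter genes of chromosomes 10 and 13 had medians of 0.13 each, with 20.3% and 16.3% higher and 4.97% and 2.58% lower. The medians of the other chromosomes lay between -0.03 and 0.07. Chromosome 10 holds Ifngr1 and Stat2 of the list. Copy number was not measured, and the part of these chromosome-wide shifts in the called genes was not tested beyond the following fit.

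**Figure D3:**
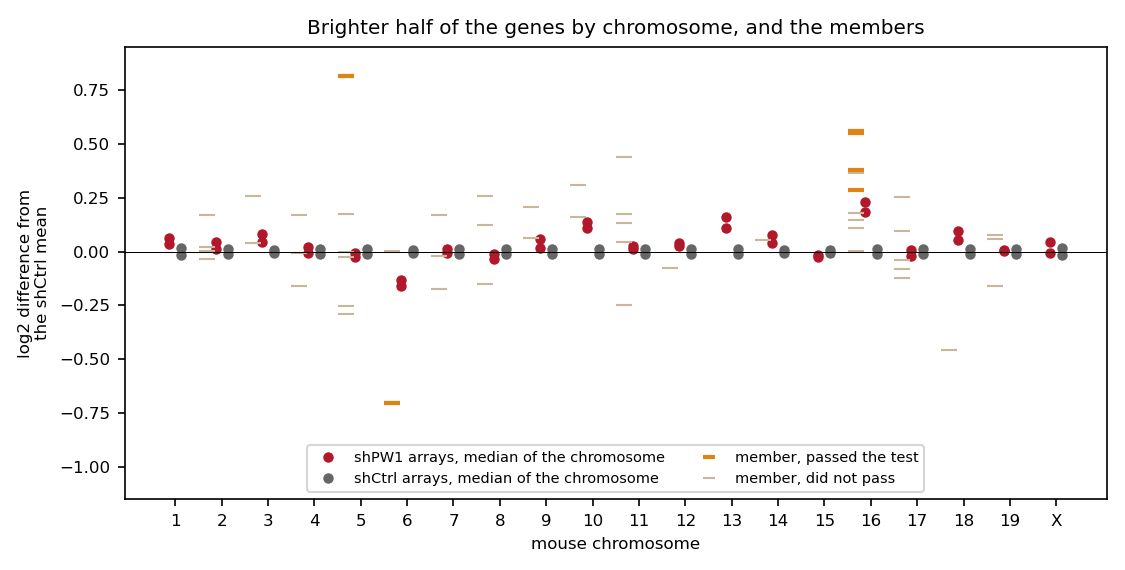
For each mouse chromosome, the median log2 difference from the shCtrl mean over its brighter genes, 1 point per array (red shPW1, grey shCtrl), and the log2 fold changes of the genes of the list as dashes (thick orange passed the test). Red points stand highest on chromosome 16 (0.18 and 0.23), where 4 of the thick dashes lie, and lowest on chromosome 6 (-0.16 and -0.13), where Irf5 lies.

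When the median shift of each chromosome was subtracted from each array before the test, a fit added after the values were seen, 2 genes of the list were higher and none was lower. Cxcl10 kept its call (0.83, adjusted p = 0.0114) and Ifngr2 did too, at a smaller difference (0.35, adjusted p = 0.0375). Ifnar2 fell just short (0.34, adjusted p = 0.0506), as did Irf5 (-0.56, adjusted p = 0.0674). The fit took the same shift for the whole of chromosome 6, although its blocks differed, so the shift taken from Irf5 may not be that of its own stretch. Dtx3l (0.17, adjusted p = 0.169) and Socs1 (0.08, adjusted p = 0.444) differed little after this centring. Peg3, on chromosome 7, kept its call (-2.35, adjusted p = 0.00493).

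The neighbours of the receptor genes on chromosome 16 were read in the same way. In order along the chromosome, Ifnar2 (0.55), Il10rb (0.64, adjusted p = 0.0236), Ifnar1 (0.18) and Ifngr2 (0.56) form the cluster of class II cytokine receptor genes, so 3 of its 4 genes were higher in shPW1. Tmem50b, which follows Ifngr2, had a difference of -0.24 (adjusted p = 0.0863), and Gart, a gene of purine synthesis farther on, was higher (0.29, adjusted p = 0.0473). Next to Parp14 (0.36), Dtx3l (0.38) and Parp9 (0.11), the importin gene Kpna1 was higher by 0.67 (adjusted p = 0.0111). Of 13 neighbours outside the list in these 2 stretches, 3 were higher (Il10rb, Gart and Kpna1), none was lower, and the test was not passed by 10, whose differences lay between -0.24 and 0.44. Il10rb, Gart and Kpna1 were all among the brighter genes. On chromosome 16, 13.7% of all genes and 26.3% of the brighter genes were higher. Whether these stretches differ from the rest of the chromosome was not tested.

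Other genes of the pathway were read from 2 lists outside the 52. Of 67 measured interferon-stimulated genes, 2 were higher (2.99%) and 4 lower (5.97%), with a median of 0.00. The higher ones were Parp10 (0.56, adjusted p = 0.0251), an ADP-ribosyltransferase, and Slfn3 (0.44, adjusted p = 0.0241), a Schlafen gene of mice. The lower ones were Ly6e (-0.72, adjusted p = 0.00983), a membrane protein that restricts coronavirus entry, Mov10 (-0.52, adjusted p = 0.0284), an RNA helicase, Trafd1 (-0.47, adjusted p = 0.0202), a negative regulator of innate signalling, and Parp11 (-0.42, adjusted p = 0.0379). The shares stood near those of all genes in either direction.

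Of 43 measured genes of sensing and signalling, 3 were higher (6.98%, against 4.93% of all genes) and 1 lower (2.33%, against 4.35%), with a median of -0.01. Il10rb was named above. Aim2, an inflammasome sensor of cytosolic DNA, was at 6.78 and 6.93 in shPW1, against 6.24 and 6.27 in shCtrl (0.60, adjusted p = 0.0225). Tbk1, the kinase that phosphorylates Irf3 below Mavs and Sting1, was at 8.60 and 8.63 in shPW1, against 8.25 and 8.22 in shCtrl (0.38, adjusted p = 0.0306). It lies on chromosome 10, whose brighter genes had a median of 0.13 with 20.3% higher. After centring by chromosome, 1 of the 43 genes was higher, and the centred value of Tbk1 is not given here. Slc15a3, a lysosomal transporter of bacterial peptides that feed toll-like and Nod signalling, was at 5.20 and 5.78 in shPW1, against 8.10 and 7.90 in shCtrl (-2.51, adjusted p = 0.00999), and the groups lay far apart. Socs3, the feedback inhibitor of interleukin 6 signalling, was at 8.04 and 8.09 in shPW1 and 7.90 and 7.87 in shCtrl and did not pass the test (0.18, adjusted p = 0.138).

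A list of NF-kappaB and tumour necrosis factor response genes stood beside these. It too was chosen with earlier results of these data known, so its share describes the list and is not a test. Of its 39 measured genes, 22 were higher in shPW1 (56.4%, against 4.93% of all genes) and none was lower, with a median of 0.44. The largest differences were those of Cxcl5 (2.86), Cxcl1 (2.69), Ccl2 (2.36) and Il6 (2.04). Cxcl10, at 0.81, is known as a target of both routes and its window holds kappaB letters as well as the ISRE core. The difference between the lists was not tested, and which route acted on Cxcl10 was not tested.

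**Figure D4:**
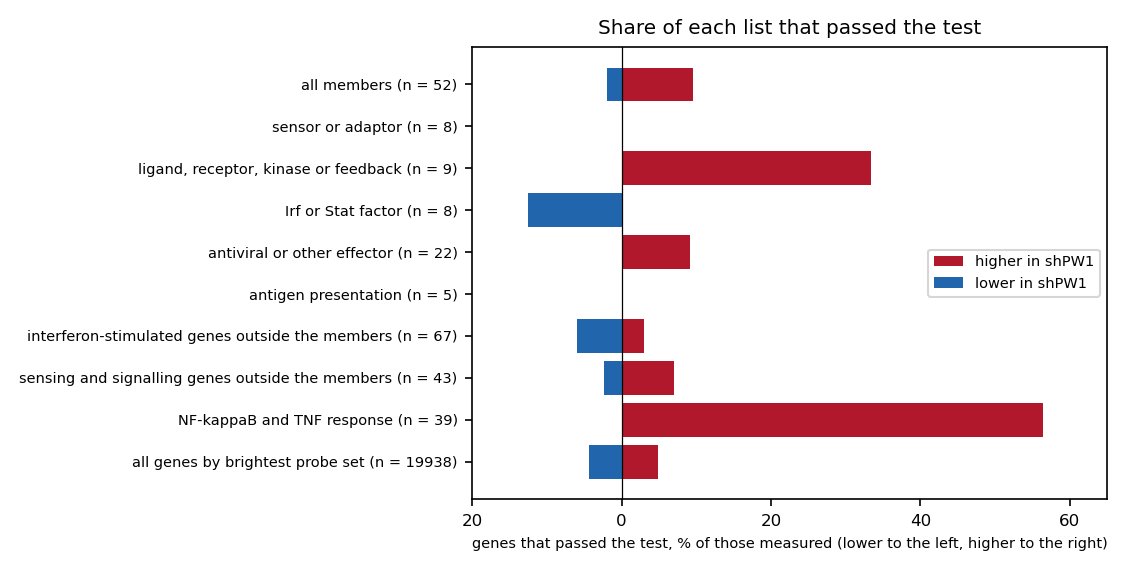
Percent of the measured genes of each list that passed the test, lower in shPW1 to the left (blue) and higher to the right (red), for the 52 genes, their role classes, the lists outside them and all genes. Against 4.93% higher and 4.35% lower of all genes, the 52 genes had 9.62% and 1.92%, the effectors 9.09% and 0%, and the sensors and antigen presentation genes 0% in both directions. The receptor and feedback class stands at 33.3% higher, with its 3 called genes all on chromosome 16.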

How the data were processed

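Arrays were normalized by RMA in Partek Genomics Suite (6.4 per the submitters' notes), and the authors deposited the resulting log2 expression values, so background correction, normalization and summarization of probes were done before deposit. Of 35556 rows, the test took the 21789 probe sets that carry a single gene symbol. The test was lmFit followed by eBayes (limma 3.58.1, R 4.3.3, with 2 residual and 2.72 prior degrees of freedom), with two-sided p-values adjusted over these probe sets. A gene was represented by its brightest probe set, and genes were split into brighter and dimmer at the median mean level of 6.05. The number of arrays limits the precision. The script was tested on simulated data. The genes and lists were chosen with earlier results of these data known. Array values, the standard error and the adjusted p-value were given for the called genes of the list. The 3 genes of each role with the largest differences had array values and the adjusted p-value, except Psmb8 and Psmb9, given by their difference alone. Array values were given for all sensors and factors. Up to 10 called genes of each outside list (4 for NF-kappaB) were named with at least their difference. Gart, Kpna1 and Tmem50b were named as neighbours after their values were seen, as were other values given beyond this rule. Same-numbered arrays did not deviate together (correlation -0.11), so the numbers were not taken to pair them. Promoter windows came from RefSeq (GRCm38.p6). Alternatives were the removal of dim probe sets, the test over every row, renewed quantile normalization, array medians subtracted before the fit, a prior with trend and robust estimation, the methods' analysis of variance (p under 0.05 and a fold over 1.2, or adjusted), the replicate number as a block, the mean over the probe sets of a gene, and each array left out. Centring by chromosome and a block with crossed numbers were chosen after seeing the data.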

Additional observations from a re-analysis of the deposited data

How the results depend on the processing

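With 2 arrays per group, the calls depended strongly on the setting, while called differences kept their direction. Among the 52 genes, 5 higher and 1 lower became 10 higher and 4 lower both without dim probe sets (where Cxcl10 and Dtx3l were not tested) and with a trended robust prior, 0 and 0 with all rows tested, and 0 lower with a second quantile normalization. The replicate number as a block left 1 higher (Cxcl10, adjusted p = 0.0373) and 0 lower, and crossed numbers also left 1 and 0. Chromosome centring left 2 and 0. The methods' analysis of variance called 0 and 0 after adjustment. Leaving out any array gave 0 to 0 calls in each direction for the 52 genes and both outside lists. The median of the 52 genes was 0.12 without dim probe sets, 0.098 after quantile normalization, 0.12 with array medians subtracted, 0.019 with chromosome centring, and 0.043 to 0.12 with an array left out. Interferon-stimulated genes outside the list (2 higher, 4 lower) gave 5 and 8 without dim probe sets, 0 and 0 with all rows, 5 and 9 with the trended prior, 0 and 1 with the replicate block and 0 and 0 in the adjusted analysis of variance. Sensing and signalling genes (3 higher, 1 lower) gave 8 and 4, 0 and 0, 6 and 3, 1 higher with the block, 1 higher with chromosome centring, 2 lower in the analysis of variance unadjusted, and 0 and 0 adjusted. Peg3 was at -2.34 with an adjusted p of 0.105 in the analysis of variance and between -2.47 and -2.21 with an array left out, no longer past the threshold. The cause of these changes was not tested. Leaving out an array also leaves fewer arrays in a group, so those fits could hardly pass any gene.

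Signs turned only for genes that did not pass the test. After quantile normalization these were Mavs (-0.013), Oas2 (0.017), Oas3 (0.045), Samhd1 (-0.036) and Tap1 (0.0010). With array medians subtracted they were Ifnb1 (0.050), Isg20 (0.038), Oas2 (0.032), Oas3 (0.058), Tap1 (0.017) and B2m (0.024). With chromosome centring they were Mavs (-0.013), Ifnar1 (-0.030), Irf9 (-0.0056), Mx1 (-0.063), Mx2 (-0.21), Oas3 (0.019), Gbp3 (-0.019), Parp9 (-0.10) and Samhd1 (-0.028). With an array left out, values ran from -0.068 to 0.053 for Ifnb1, -0.057 to 0.061 for Usp18, -0.17 to 0.13 for Isg20, -0.16 to 0.16 for Oas3, -0.045 to 0.13 for Xaf1, -0.085 to 0.12 for Mavs, -0.035 to 0.19 for Ifit2, -0.039 to 0.34 for Mx1, -0.15 to 0.16 for Mx2, -0.20 to 0.14 for Oas2, -0.028 to 0.25 for Parp9, -0.042 to 0.051 for Samhd1, -0.028 to 0.14 for Ifit3, -0.051 to 0.13 for Gbp3 and -0.16 to 0.0017 for Psmb9.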
